A study of Rattus norvegicus with 8 samples.

Results

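The genes described here are 45 genes of mitosis: the kinases and cyclins of mitotic entry, the transcription factors of mitotic genes, and the proteins of chromosome structure, kinetochore, spindle checkpoint, anaphase, spindle and cytokinesis. They were chosen by name for their role, without the centromere protein, kinesin and tubulin families. By the RefSeq accession of their probes, 36 of the 45 were matched on the array. One of these, Hmmr, was too dim to test, which left 35 among the 19865 genes tested.

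The samples were total RNA of the right kidney of male F344/NSlc rats, 10 weeks old, each measured on its own 1-colour array. The 4 sham rats had a sham operation and the 4 nephrectomized rats had lost the other kidney by surgery, with no drug or transgene in either group. The question behind the comparison is which mRNAs change in the kidney that remains. The source labels put sampling at day 1 for sham and day 2 for nephrectomized rats, whereas the series text gives 2 days for both, so a difference of a day cannot be told apart from the operation.

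Mitosis is driven by Cdk1 bound to B- and A-type cyclins, and its genes are transcribed mostly in late S and G2 phase. B-Myb and FoxM1 raise their transcription, acting with the MuvB complex at a promoter motif called the cell cycle genes homology region (CHR), and NF-Y binds nearby CCAAT boxes. Most cells of the adult kidney are not dividing, and the kidney that remains after nephrectomy grows mainly by enlargement of its cells, with some cell division.

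Many of these genes share promoter motifs, which the choice of genes did not use. The 250 bases before the annotated start were read from RefSeq (GRCr8) for the 37 of the 45 genes with an entry. Of these, 19 (51.4%) held TTTGAA on either strand, against 16.03% of all 27457 genes with an entry and 10.4% of the 8122 tested genes with one. The second form searched, TTCGAA, which reads the same on both strands, was found in 3 (8.11%), against 1.501% of all genes. The CCAAT box occurred on either strand in 28 (75.7%), against 34.3% of all genes, and at least 2 of them in 20 (54.1%), against 9.77%. A CHR form together with a CCAAT box was found in 19 (51.4%), against 6.22% of all genes and 4.68% of tested genes. These are matches of letters in a window, not measured binding sites.

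The promoters below show how both motifs are arranged in 5 genes that rose and in Cdc25b, which did not pass the test. The 5 have the largest differences among the genes that hold a CHR form and were picked for a full description by their place within a role or by having only a bound, so Cdk1 and Ccnb2, which hold one too, are not printed. Capitals mark the CHR forms and the CCAAT box, which reads ATTGG where it lies on the other strand, and in Mki67 a CHR form and a box overlap. Each runs 5′ to 3′ on the gene's strand up to the base before the start. The positions in GRCr8 are chr10:13783670-13783919 on the minus strand for Ccnf, chr1:143659231-143659480 on the plus strand for Prc1, chr1:199952594-199952843 on the minus strand for Mki67, chr2:111966627-111966876 on the minus strand for Ect2, chr16:76541864-76542113 on the plus strand for Ckap2 and chr3:138859923-138860172 on the plus strand for Cdc25b.
Ccnf: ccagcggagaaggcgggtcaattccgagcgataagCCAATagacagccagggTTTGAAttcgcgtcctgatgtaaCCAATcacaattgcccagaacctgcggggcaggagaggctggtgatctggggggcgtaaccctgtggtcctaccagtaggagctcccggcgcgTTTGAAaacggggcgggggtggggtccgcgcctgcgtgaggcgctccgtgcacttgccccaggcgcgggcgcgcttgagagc
Prc1: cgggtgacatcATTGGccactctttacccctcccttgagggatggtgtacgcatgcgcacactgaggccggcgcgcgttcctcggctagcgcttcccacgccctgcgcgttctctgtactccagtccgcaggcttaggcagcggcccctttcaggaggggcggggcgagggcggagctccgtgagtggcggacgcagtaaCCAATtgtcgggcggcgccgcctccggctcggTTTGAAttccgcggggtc
Mki67: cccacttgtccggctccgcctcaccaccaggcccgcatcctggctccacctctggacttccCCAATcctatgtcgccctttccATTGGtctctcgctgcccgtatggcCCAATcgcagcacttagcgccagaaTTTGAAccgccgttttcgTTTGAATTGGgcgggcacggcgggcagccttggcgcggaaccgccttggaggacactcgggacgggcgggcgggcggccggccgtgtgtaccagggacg
Ect2: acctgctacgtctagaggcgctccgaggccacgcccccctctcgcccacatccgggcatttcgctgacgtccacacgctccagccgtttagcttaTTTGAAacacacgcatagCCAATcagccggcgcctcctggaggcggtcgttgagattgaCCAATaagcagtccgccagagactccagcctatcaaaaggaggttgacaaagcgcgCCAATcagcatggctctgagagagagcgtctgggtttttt
Ckap2: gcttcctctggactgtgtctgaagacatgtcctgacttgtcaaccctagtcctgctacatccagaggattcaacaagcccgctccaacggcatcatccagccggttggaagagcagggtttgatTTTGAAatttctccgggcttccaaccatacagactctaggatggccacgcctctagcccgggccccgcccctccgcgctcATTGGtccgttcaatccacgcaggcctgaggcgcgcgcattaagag
Cdc25b: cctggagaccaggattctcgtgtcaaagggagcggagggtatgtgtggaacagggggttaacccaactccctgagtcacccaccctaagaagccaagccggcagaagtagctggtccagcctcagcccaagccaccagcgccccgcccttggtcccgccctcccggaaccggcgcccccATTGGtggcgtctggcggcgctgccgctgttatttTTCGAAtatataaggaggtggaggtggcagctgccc
Ccnf and Mki67 hold a pair of TTTGAA matches each, and Ect2 holds 3 CCAAT boxes downstream of its single TTTGAA. In Prc1 the TTTGAA lies 18 bases before the start, with a CCAAT box upstream of it. Ckap2 holds a single match of each kind. Cdc25b also holds a CCAAT box, upstream of a TTCGAA.

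**Figure D1:**
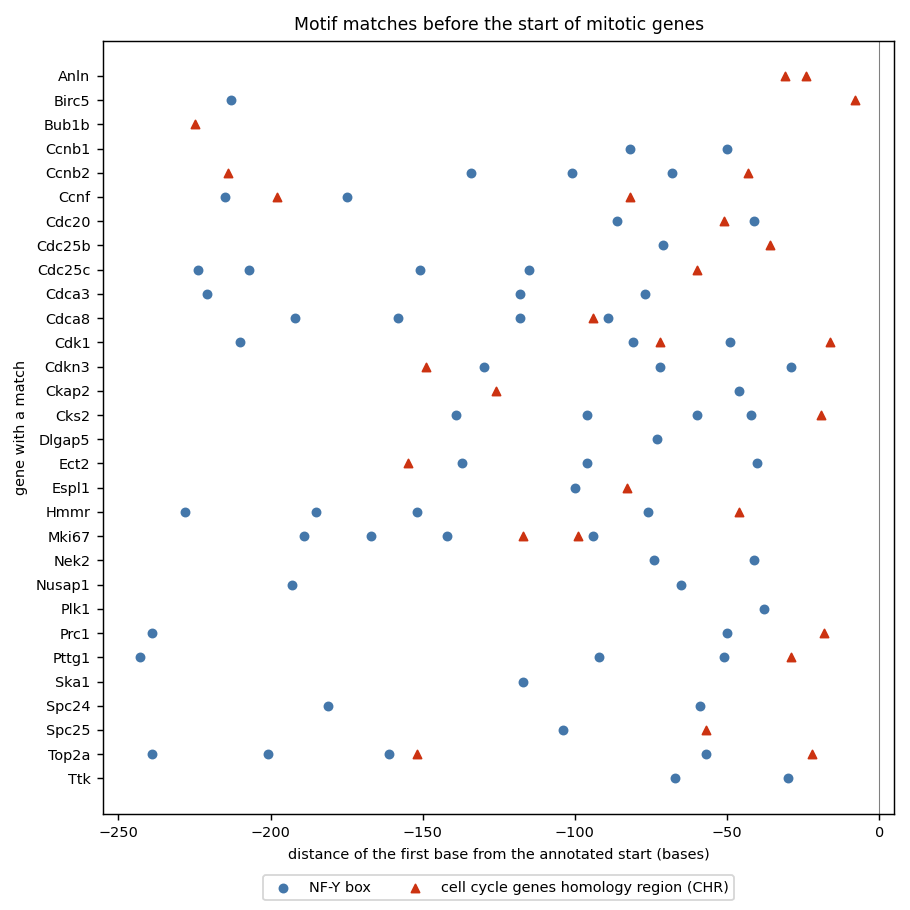
Positions of matches to the CHR forms (triangles) and to the CCAAT box, the NF-Y motif (circles), in bases before the annotated start. Each gene with a match among the 37 with a promoter entry is shown. CHR forms were found in 21 genes and CCAAT boxes in 28.

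Mitotic genes as a group were higher in the kidney of nephrectomized rats. Of the 35 tested, 32 passed the test as higher and 0 as lower (limma over all genes, adjusted p from 0.00108 to 0.0236), where 2.57% of all genes passed as higher and 3.59% in either direction. The 3 that did not pass were Cdc25b, Incenp and Racgap1. The median difference was 1.67 on the log2 scale, or 3.19-fold, against -0.00041 for all genes. All 4 nephrectomized rats lay above all 4 sham rats for 34 of the 35 genes, against 7.56% of all genes, and the exception was Cdc25b. Of the 32, Ccnf and Nek2 were seen in no sham rat and have only a bound there, and with both at their bound the median of the 35 was 1.58 on the log2 scale. The other 30 were 2.02-fold or more higher, where 0.856% of all genes passed and reached 2-fold, though some of them fell below 2-fold with another background correction. Ccnf, Nek2 and Aurkb passed the filter only through the nephrectomized arrays, the group where they were high. With the filter on all 8 arrays, 32 genes were tested and 30 were called higher. Of these, 29 were called in the main analysis and Racgap1 was gained. In RNA of a whole organ, more cells of a type and more RNA per cell cannot be told apart.

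**Figure D2:**
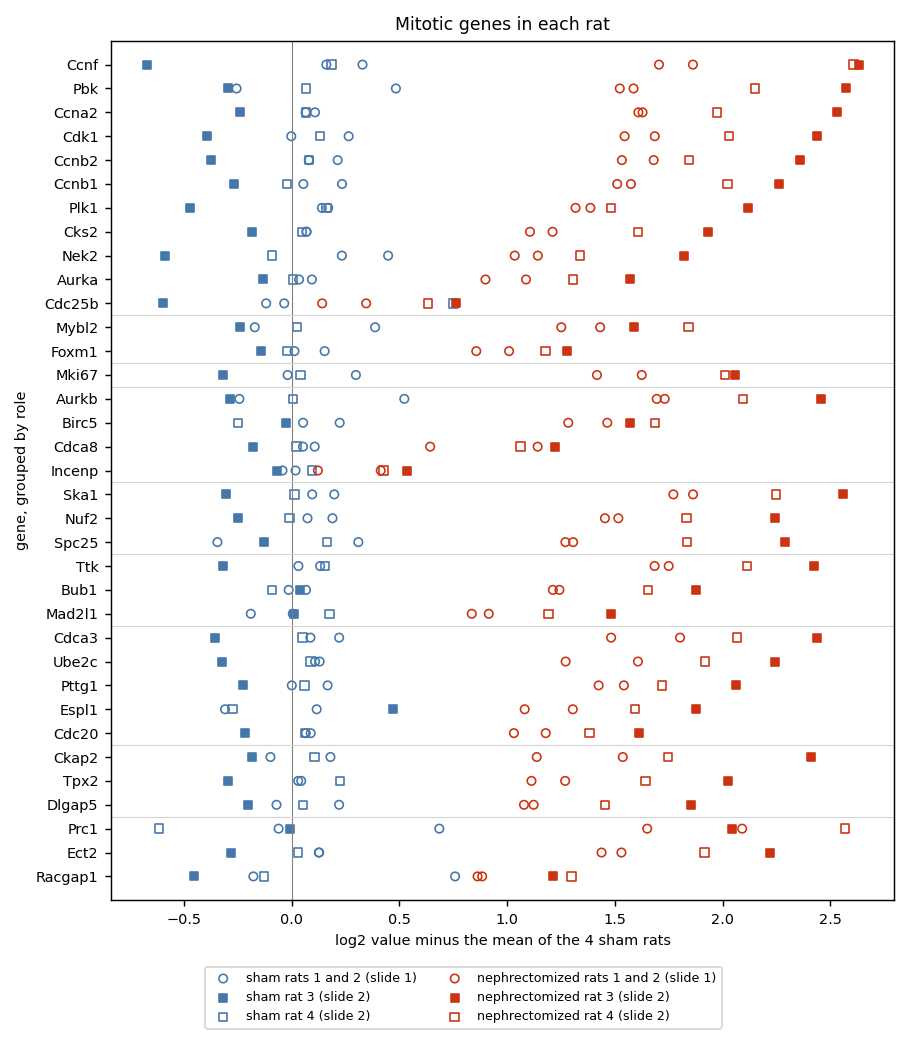
Value of each mitotic gene in each rat, as log2 value minus the mean of the 4 sham rats, with genes grouped by role. Sham rats (blue) lie around 0 and nephrectomized rats (red) to their right, with nephrectomized rat 3 farthest right for 31 of 35 genes, and only Cdc25b has groups that overlap.

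Levels below are given as a percent of the array's own 75th percentile of intensity, listed for rats 1 to 4, and they compare rats within a gene, not one gene with another. Among the drivers of mitotic entry, 10 of 11 tested genes rose. Cdk1, the kinase that starts mitosis, read 338, 406, 257 and 371 in sham rats and 1087, 986, 1829 and 1379 in nephrectomized rats. The lowest nephrectomized rat stood well above the highest sham rat. The difference was 3.79-fold (95% interval 2.72 to 5.30, adjusted p = 0.00233 by limma). Its partner Ccna2, cyclin A2, read 43.1, 41.8, 33.9 and 41.9 against 124, 122, 231 and 157, a 3.83-fold difference (95% interval 2.79 to 5.25, adjusted p = 0.00186 by limma). A second Ccna2 probe gave 2.12 on the log2 scale against 1.94 for the brighter one. The B-type cyclins Ccnb1 and Ccnb2, which activate Cdk1 directly, rose too, 3.58-fold and 3.61-fold. Pbk, a mitotic kinase, read 11.7, 19.5, 11.4 and 14.6 against 41.9, 40.1, 83.1 and 62.0. The groups were far apart, and nephrectomized rats 3 and 4 were the highest. The difference was 3.89-fold (95% interval 2.56 to 5.89, adjusted p = 0.00532 by limma).

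Other kinases of entry and their partners rose as well. Plk1 was 2.98-fold higher and Aurka, the centrosomal Aurora kinase, 2.32-fold higher. Cks2, a small subunit that docks Cdk1 to its substrates, was 2.76-fold higher. Ccnf, the F-box protein cyclin F, read 3.41, 3.04, 1.70 and 3.09 against 8.85, 9.88, 16.8 and 16.6 and was well above background in no sham rat and in all 4 nephrectomized rats. A second Ccnf probe, well above background on no array, gave only 0.31 on the log2 scale and was not tested. By the probe used, Ccnf was at least 2.64-fold higher (adjusted p = 0.00439 by limma). This bound takes as the level of each sham array the dimmest probe that array still measured well above background, or the probe itself where it was brighter. Nek2, a kinase of centrosome separation, was likewise well above background in no sham rat, reading 4.39, 3.78, 2.14 and 3.02 against 7.11, 6.60, 11.4 and 8.14. It was at least 1.69-fold higher (adjusted p = 0.0236 by limma), and the call was lost without sham rat 4 (0.0667) or nephrectomized rat 4 (0.0741).

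Cdc25b, a phosphatase that removes the inhibitory phosphates from Cdk1, was the exception among the entry genes. It read 21.2, 19.99, 14.3 and 36.5 in sham rats and 27.6, 23.9, 36.8 and 33.6 in nephrectomized rats. Sham rat 4 lay above 3 of the nephrectomized rats, so the groups overlapped. The difference of 1.39-fold (95% interval 0.907 to 2.12) did not pass (adjusted p = 0.415 by limma). Cdc25c, Cdkn3 and Melk were not matched to a probe.

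Both transcription factors of the mitotic programme rose. Foxm1 read 82.1, 74.5, 66.8 and 72.8 in sham rats and 149, 134, 179 and 167 in nephrectomized rats. The groups were clearly separated, with little spread among sham rats. The difference was 2.11-fold (95% interval 1.79 to 2.50, adjusted p = 0.00160 by limma), and a second probe gave 1.12 on the log2 scale against 1.08. Mybl2, which encodes B-Myb, read 12.5, 8.52, 8.13 and 9.75 against 22.8, 25.9, 28.8 and 34.4, with nephrectomized rat 4 the highest. The difference was 2.88-fold (95% interval 2.22 to 3.75, adjusted p = 0.00226 by limma). Its dimmer probe gave only 0.52 on the log2 scale and did not pass (adjusted p = 0.420 by limma with every probe on its own), so the 2 probes of Mybl2 disagree.

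Mki67, which encodes the Ki-67 coat protein of mitotic chromosomes and the usual proliferation marker, read 94.6, 75.9, 61.7 and 79.1 in sham rats and 237, 205, 320.4 and 309.8 in nephrectomized rats. Rats 3 and 4 of the nephrectomized group were nearly equal and highest. The difference was 3.43-fold (95% interval 2.60 to 4.52, adjusted p = 0.00162 by limma), and the second probe gave 1.77 on the log2 scale against 1.78. Top2a, the topoisomerase that disentangles sister chromatids, was not matched.

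The chromosomal passenger complex, which corrects wrong attachments of chromosomes and later marks the cleavage plane, had 3 of its 4 subunits higher. Birc5, the survivin subunit, read 107, 120.4, 101 and 86.8 against 285, 251, 306 and 332. Here sham rat 4 was the lowest and nephrectomized rat 4 the highest, with no overlap. The difference was 2.83-fold (95% interval 2.34 to 3.42, adjusted p = 0.00108 by limma). Aurkb, the kinase of the complex, read 3.33, 5.67, 3.24 and 3.96 against 12.8, 13.1, 21.7 and 16.9, with its probe well above background in 1 of 4 sham rats and in all 4 nephrectomized rats. It passed as higher (adjusted p = 0.00241 by limma), and its fitted fold of 3.98 was 1.84 with normexp background correction, so its size is not well fixed. Cdca8, the borealin subunit, read 12.3, 11.9, 10.1 and 11.6 against 17.9, 25.3, 26.7 and 23.9, 2.02-fold (95% interval 1.65 to 2.49, adjusted p = 0.00412 by limma). Incenp, the scaffold that holds the kinase, read 142, 136, 134 and 149.8 against 187, 153, 203 and 189. Its groups did not overlap, but nephrectomized rat 2 was close to sham rat 4. The difference of 1.30-fold (95% interval 1.12 to 1.502) did not pass (adjusted p = 0.0733 by limma), and it passed without nephrectomized rat 2 (adjusted p = 0.0210).

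At the kinetochore, where microtubules are bound, all 3 tested genes rose. Ska1, a subunit that keeps kinetochores on shortening microtubules, read 9.34, 8.70, 6.59 and 8.22 against 29.6, 27.8, 48.0 and 38.7. Every nephrectomized rat lay well above every sham rat. The 4.32-fold difference (95% interval 3.22 to 5.78, adjusted p = 0.00108 by limma) was 2.43-fold with normexp background correction. Nuf2, a subunit of the Ndc80 complex, read 20.6, 22.3, 16.5 and 19.5 against 56.0, 53.7, 92.7 and 69.8, 3.39-fold (95% interval 2.56 to 4.49, adjusted p = 0.00166 by limma). Spc25, of the same complex, was 3.19-fold higher (adjusted p = 0.00799 by limma), and Ndc80 and Spc24 were not matched.

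The spindle assembly checkpoint holds anaphase until all chromosomes are attached, and its 3 tested genes rose. Ttk, the Mps1 kinase that starts the signal, read 36.7, 34.2, 26.9 and 37.3 against 113, 108, 180.1 and 145. The nephrectomized rats were far above the sham rats. The difference was 3.98-fold (95% interval 3.00 to 5.28, adjusted p = 0.00108 by limma), and its second probe gave 1.95 on the log2 scale against 1.99. Bub1, a kinase recruited to unattached kinetochores, read 58.3, 61.7, 60.5 and 55.3 against 139, 136, 216 and 185, with sham rats within a narrow range. The difference was 2.82-fold (95% interval 2.23 to 3.56, adjusted p = 0.00163 by limma). Mad2l1, the checkpoint protein that sequesters Cdc20, rose 2.15-fold (adjusted p = 0.00502 by limma), and Bub1b was not matched.

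All 5 genes of anaphase onset and mitotic exit rose. Cdca3, which helps degrade the Cdk1 inhibitor Wee1, read 125, 137, 92.2 and 122 in sham rats and 412, 329.7, 639.6 and 494 in nephrectomized rats. Sham rat 3 was the lowest and nephrectomized rat 3 the highest. The difference was 3.86-fold (95% interval 2.78 to 5.34, adjusted p = 0.00205 by limma). Ube2c, the ubiquitin-conjugating enzyme that works with the anaphase promoting complex, read 49.5, 48.8, 36.1 and 48.1 against 138, 109, 214 and 171. Again rat 3 of each group stood at its outer end. The difference was 3.39-fold (95% interval 2.45 to 4.67, adjusted p = 0.00272 by limma). Pttg1, the securin that inhibits separase, was 3.22-fold higher and Espl1, separase itself, 2.76-fold higher (both passed). Cdc20, the activator of the complex, was 2.46-fold higher.

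The 3 tested spindle genes rose. Ckap2, a microtubule-associated protein, read 23.4, 28.4, 22.1 and 27.0 against 72.8, 55.2, 133 and 84.2. Nephrectomized rat 3 stood far above the other nephrectomized rats, though none came near the sham rats. The difference was 3.26-fold (95% interval 2.23 to 4.77, adjusted p = 0.00671 by limma). Tpx2, which activates Aurka on spindle microtubules, read 17.5, 17.6, 13.9 and 19.98 against 37.0, 41.2, 69.7 and 53.4, 2.85-fold (95% interval 2.08 to 3.92, adjusted p = 0.00500 by limma). Dlgap5, a stabiliser of kinetochore fibres, was 2.60-fold higher. Hmmr, a spindle pole protein, was measured well above background in 2 of 4 nephrectomized rats and in none of the sham rats. It read 1.58, 1.43, 2.47 and 0.943 in sham and 3.05, 1.87, 4.41 and 5.44 in nephrectomized rats, and it was not tested. Nusap1 was not matched.

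In cytokinesis, 2 of 3 tested genes rose. Prc1, which bundles the midzone microtubules, read 10.9, 18.3, 11.3 and 7.42 against 35.7, 48.5, 46.9 and 67.5. Sham values spread widely here, with sham rat 2 highest, yet the groups did not overlap. The difference was 4.25-fold (95% interval 2.73 to 6.61, adjusted p = 0.00521 by limma), and it did not pass without rat 3 of both groups, a choice made after seeing the data (adjusted p = 0.0632). Ect2, the exchange factor that activates RhoA at the cleavage furrow, read 80.7, 80.8, 60.8 and 75.6 against 214, 200.4, 345 and 279, 3.42-fold (95% interval 2.58 to 4.55, adjusted p = 0.00166 by limma). Racgap1, the centralspindlin subunit that recruits Ect2, read 92.6, 48.4, 40.0 and 50.1 against 101, 99.5, 127 and 135. Sham rat 1 almost reached the lowest nephrectomized rats. The difference of 2.09-fold (95% interval 1.42 to 3.08) did not pass (adjusted p = 0.0550 by limma). Both dimmer Racgap1 probes did pass, at 1.39 and 1.38 on the log2 scale (adjusted p = 0.00314 and 0.00388 by limma with every probe on its own), and so did the brightest one without sham rat 1 (adjusted p = 0.00542). Anln was not matched.

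**Figure D3:**
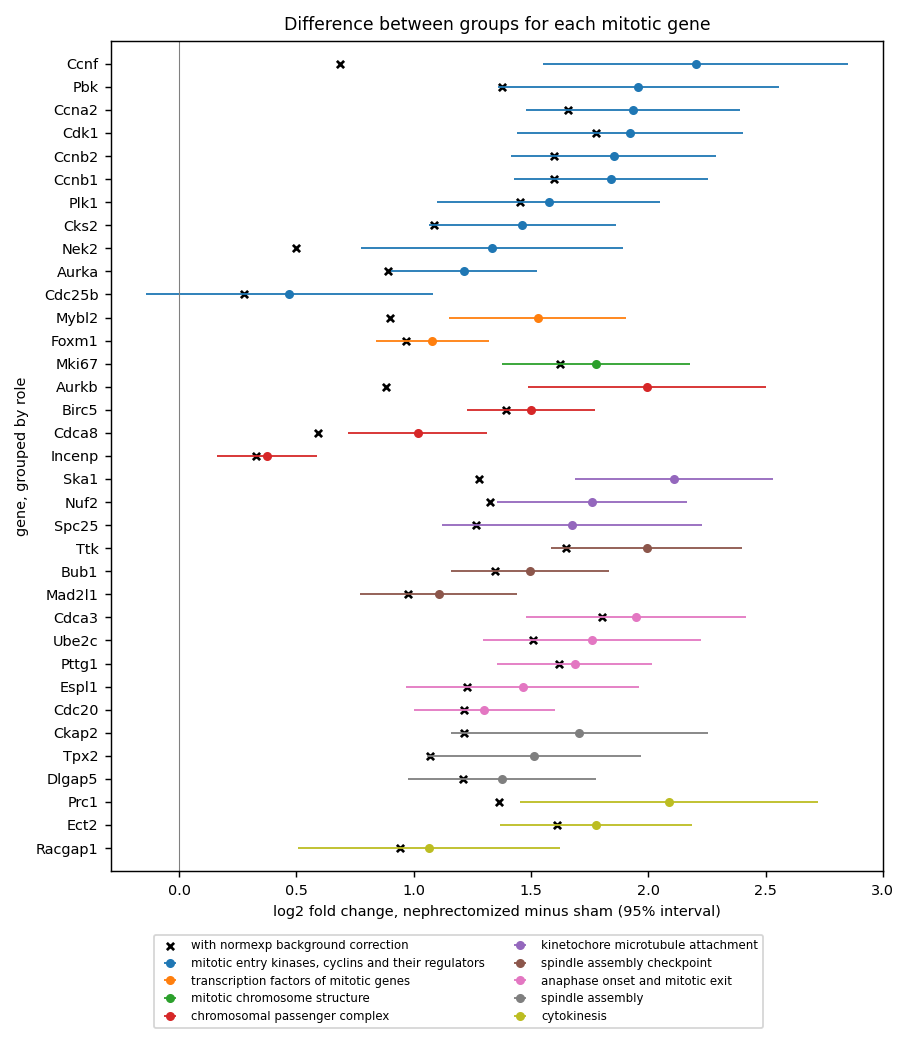
Difference between groups for each mitotic gene, as log2 fold change (nephrectomized minus sham, 4 rats each) with its 95% interval, coloured by role. The black crosses are the same difference after another background correction. They lie to the left of the points, farthest for dim genes such as Ccnf. The cross lies outside the interval for Ccnf, Nek2, Aurka, Mybl2, Aurkb, Cdca8, Nuf2, Ska1 and Prc1. All points are above 0, and only the interval of Cdc25b reaches 0.

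The folds of dim genes changed with the background correction. With normexp background correction, another way to handle dim spots, the fitted difference of Ccnf went from 2.20 to 0.68, Nek2 from 1.33 to 0.50, Aurkb from 1.99 to 0.88, Ska1 from 2.11 to 1.28 and Prc1 from 2.09 to 1.37 on the log2 scale. This correction adds an offset of 50 to every spot, which by itself makes folds smaller, most for dim spots. How much of the change comes from the offset was not tested. With normexp all 32 genes called in the main analysis stayed called, but 11 of 35 were below 2-fold. Of the 33 genes seen in at least 1 sham rat, 17 were at least 3-fold higher in the main analysis, 14 lay between 2- and 3-fold and 2, Cdc25b and Incenp, lay under 2-fold.

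The nephrectomized rats were not alike. Against the mean of the sham rats, the median gene of the 35 stood at 1.46, 1.28, 2.06 and 1.75 on the log2 scale in nephrectomized rats 1 to 4. In sham rats 1 to 4 it stood at 0.09, 0.10, -0.25 and 0.05. Nephrectomized rat 3 was the highest of its group for 31 of 35 genes, and sham rat 3 was the lowest of its group for 29. Both held at once for 27 genes. The SD was larger among nephrectomized than among sham rats for 27 of 35 genes, against 53.4% of all genes.

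Slide 1 carried rats 1 and 2 of each group and slide 2 carried rats 3 and 4, with 1 scan per slide. The difference between groups was larger on slide 2 for 35 of 35 genes, against 47.2% of all genes, and the median difference was 1.30 (log2) on the first slide and 1.97 on the other. Cdk1 differed by 1.48 on slide 1 and 2.36 on slide 2. For Ccnb1 the values were 1.40 and 2.29. The test of the difference itself, a group by slide interaction in limma, passed for 0 of 35 and for 0 of all genes after adjustment, and had an unadjusted p under 0.05 for 23 of 35, against 2.77% of all genes. Whether slide or rats account for the unequal sizes was not tested. With slide as a block, 32 of 35 passed as higher, against 2.84% of all genes. On slide 1 alone, with 2 rats against 2, 0 of 35 passed by limma (lowest adjusted p = 0.0776) and 32 had an unadjusted p under 0.05, against 8.22% of all genes. On slide 2 alone 25 of 35 passed, against 0.71% of all genes. On both slides sham arrays lay at positions 1 and 2 and nephrectomized arrays at 3 and 4, so position on the slide and group cannot be told apart.

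**Figure D4:**
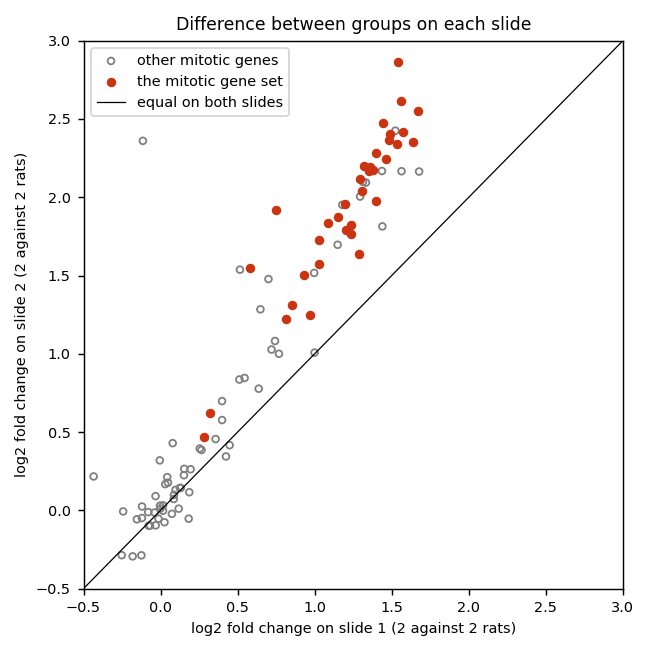
Difference between groups on slide 1 (horizontal) and slide 2 (vertical), in log2 units, 2 rats against 2 on each. All 35 mitotic genes (filled) lie above the line of equal difference, as do 50 of the 66 other mitotic genes (open).

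Of the other genes of mitosis, 66 tested of 99 listed, 23 rose and 0 fell, where 1.02% of all genes passed as lower. Their median difference was 0.17 on the log2 scale. Regulators of the phosphatases and kinases of entry included Mastl, the Greatwall kinase, 3.79-fold higher (adjusted p = 0.00108 by limma), and Pkmyt1, which inhibits Cdk1, 2.68-fold higher, among 5 of 12 that rose. Of 11 genes listed under checkpoint and kinetochore 4 rose, led by Cdca2 (3.64-fold) and Kntc1 (3.09-fold). Mastl and Cdca2 were dim in sham rats, with means of 6.77 and 6.13% of the 75th percentile. Both were well above background in 3 of 4 sham rats and passed the filter only through the nephrectomized arrays. So did Bora and Gtse1, entry genes that also rose, each well above background in 2 of 4 sham rats. Of the 66 other mitotic genes tested, 55 were well above background on all 8 arrays by the probe used. With the filter on all 8 arrays, 15 other mitotic genes were called higher. Spindle and centrosome genes rose in 7 of 10 cases, among them Spag5 (3.28-fold) and Aspm (2.39-fold). In cytokinesis 2 of 6 rose, Arhgap11a (3.14-fold) and Troap (3.26-fold).

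Of 27 genes of the anaphase promoting complex, condensin and cohesin, with their regulators, 5 rose, where 2.57% of all genes did. Of 13 genes of the anaphase promoting complex and its regulators 2 rose, the inhibitor Fbxo5 (1.85-fold) and the chain-extending enzyme Ube2s (1.33-fold, adjusted p = 0.0117 by limma, not passing without sham rat 3 or without nephrectomized rat 4, at 0.0505 and 0.0504). Its 10 core subunits stood between -0.24 and 0.23 on the log2 scale and none passed (lowest adjusted p = 0.0716 by limma). Among 5 condensin genes 2 rose, Smc2 (2.00-fold by its brightest probe) and Ncapg2 (1.63-fold, not passing without rat 3 of both groups, adjusted p = 0.0552 by limma). The 2 probes of Smc2 disagree: the other gave 0.06 on the log2 scale (adjusted p = 0.980 by limma with every probe on its own), and the mean of both did not pass (adjusted p = 0.482). Among 9 genes of cohesin and its regulators Esco2, the S-phase acetyltransferase of cohesin, rose 3.49-fold (adjusted p = 0.0162 by limma, 0.0596 without nephrectomized rat 4). The other 8 stood between -0.27 and 0.19 and none passed (lowest adjusted p = 0.107 by limma).

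**Figure D5:**
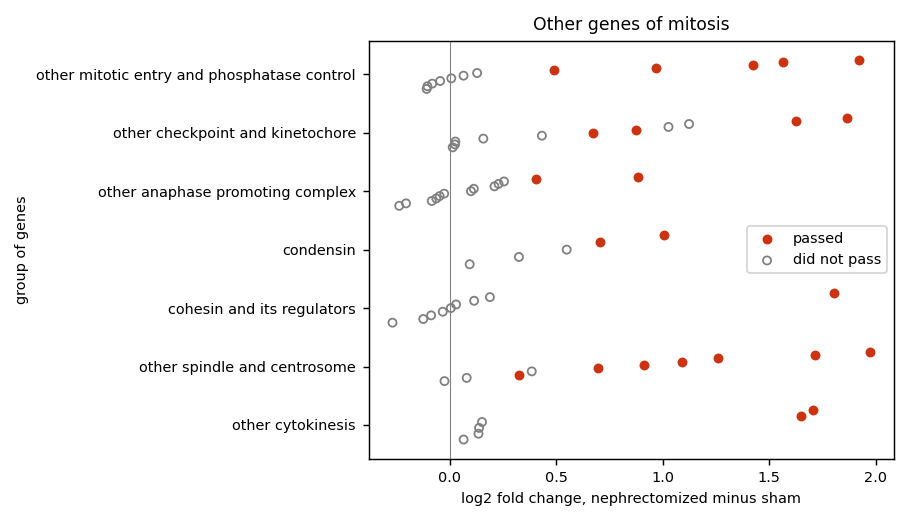
Log2 fold change (nephrectomized minus sham) of each other mitotic gene tested, one row per group of genes; filled points passed the test (adjusted p by limma) and open ones did not. The 23 filled points all lie above 0, and the cohesin row has 1.

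Kidney markers such as Slc34a1, Lrp2, Umod and Aqp2 were well above background on all 8 arrays. Of 48 tested markers of 10 tissue and cell types, 1 rose and 0 fell. Over all genes, 2.57% passed as higher and 1.02% as lower. The marker that rose was Cyp17a1 of the adrenal list (0.54 on the log2 scale, adjusted p = 0.0222 by limma). Cyp17a1 was the one adrenal marker tested, at 6.59 to 8.75 in sham and 10.45 to 11.5 in nephrectomized rats, as percents of the 75th percentile, since Cyp11b1 and Cyp11b2 did not pass the filter and Star was not matched. Summed proximal tubule markers ran from 53910 to 55689 in sham and from 50746 to 53220 in nephrectomized rats, with 0 of 8 called. Slc22a8, which had no value in sham rat 2, was left out of these sums. Leukocyte markers summed to 2856 to 3495 and 3225 to 4028, with 0 of 8 called and Cd3e, Cd4 and Itgam among those below the filter. The part of any of these in the rise of the mitotic genes was not tested. The lists for thick ascending limb and distal tubule, collecting duct, podocyte, endothelial, mesenchymal, erythroid and adipose cells had 0 calls. Probes well above background made up 54.8% to 64.6% in sham and 60.5% to 65.5% in nephrectomized arrays, and the number of arrays limits the precision of every value.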

How the data were processed

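RNA of 8 kidneys was labelled with Cy3 and hybridised to an Agilent 1-colour design (014879, annotation build rn4), per the labels' protocols and the file headers. The authors extracted the arrays with Agilent Feature Extraction 10.5.1.1, and the deposited spot intensity is background-subtracted by that software, per the file headers. The authors also deposited a log2 table of 30448 probes. For the 19865 genes tested, it matched log2 intensity minus the 75th percentile, centred per probe (r = 0.9999 over the 8 arrays). That table was used as an alternative.

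Log2 intensity minus each array's 75th percentile was used, for the 23982 of 41012 probes that every array of 1 group or both measured well above background. Symbols came from RefSeq accessions (GRCr8 gene table), and the brightest probe stood for a gene. The groups, taken from the labels, were tested against each other in limma 3.58.1 (R 4.3.3), two-sided, Benjamini-Hochberg over 19865 genes, threshold 0.05. The fit was tested on simulated data. Its p-values set the difference between groups against the spread between these rats, with variance shared across genes. Normexp (offset 50) used the median spot intensity. No spot was saturated, and no 2 arrays held the same values. Given in full were, per role, the 2 called genes with the largest difference among those well above background on all arrays, every gene without a call and every gene seen in no array of a group; other genes are named in passing, and Cdk1, Aurkb and Hmmr were given more fully after their values were seen. Genes and lists were chosen with earlier results of these data known. The alternatives were other scalings, background corrections, filters, probe rules, variance models, blocks, single slides and each rat left out.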

Additional observations from a re-analysis of the deposited data

Results flagged for a closer look

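In 6 of 70 tests of 4 rats (35 genes in each group), 1 rat stood apart from the other 3 by Dixon's ratio, the gap to the nearest rat divided by the whole range, which passed the 95% critical value for 4 samples. Chance gives about 1 in 20 for a single test, but the genes were read in the same rats, so the tests are not independent. In all 6 the rat apart was sham rat 3, the lowest of its group. The ratio was 0.875 for Ccna2, 0.832 for Ccnf, 0.954 for Plk1, 0.918 for Cks2, 0.913 for Cdc20 and 0.909 for Ube2c. For Plk1 sham rat 3 read 67.9% of the 75th percentile against 104% in the nearest sham rat. Without sham rat 3, 32 of the 35 genes were still called higher.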

How the results depend on the processing

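No mitotic gene changed sign in any of 23 alternatives that tested it, which was all 35 genes except under the filter on all 8 arrays, where 32 were tested. Of the alternatives for single genes, 1008 kept direction and call, 79 lost the call and 10 gained it. The count of 32 genes called higher lay between 25 and 34 except on slide 1 alone, where it was 0. It was 27 with the replicate number as a block, which lost Ccnf, Plk1, Nek2, Pbk and Ckap2. Over all genes, deviations of same-numbered rats from their group means correlated at 0.10, 0.01, 0.10 and -0.02. Such values cannot decide whether the numbers pair rats, and same-numbered rats also share a slide. The count ranged from 31 to 33 when a rat was left out, and the median log2 difference from 1.48 to 1.77. That median, 1.67, was 1.26 with normexp and 1.30 on slide 1 alone.

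Over all genes, 714 were called, against 282 with no filter on dim probes, 2520 with array weights, 296 with the replicate block, 0 on slide 1 (1632 unadjusted), 141 on slide 2 and 251 without rat 3 of both groups, an alternative chosen after seeing the data. Leaving out a rat gave 341 to 666: 396 without sham rat 2, 342 without sham rat 3, 429 without sham rat 4, 456 without nephrectomized rat 2 and 341 without nephrectomized rat 4. The 23 other mitotic genes called higher became 15 with the filter on all 8 arrays, 14 with the replicate block, 0 on slide 1, 12 on slide 2, 14 without rat 3 of both groups and 16 to 23 when a rat was left out. Of these other genes, 1 was called lower with array weights, and 0 when any rat was left out. Several of these alternatives differ from the main analysis in the genes tested or in the rats used. The cause of the shifts was not tested. Smc2 lost its call with its other probe and with the mean of both. With no filter Nek2, Ube2s and Esco2 lost their calls (adjusted p = 0.0899, 0.0698 and 0.0649 by limma). Racgap1 gained a call with normexp, the filter on all 8 arrays, the mean of its probes, an intensity trend, array weights, slide 2 alone and without sham rat 1, and Incenp with the trend, array weights and without nephrectomized rat 2. The dim genes Ccnf and Nek2 have only bounds in sham rats.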
